A study of Mus musculus with 12 samples.

Results

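The genes that code for histones were examined in murine Braf V600E melanoma cells. Members were chosen by gene name and not by their values. Names that start with Hist1h, Hist2h, Hist3h, or Hist4h gave 65 replication-dependent histone genes, and names that start with H2af, H3f3, or H1f gave 14 variant histone genes. Together they were 79 of the 30705 gene names measured. RNA-seq was done on 12 samples of cultured cells, with 3 samples for each of 4 lines (the scramble control and the knockouts *ptgs1*-KO, *ptgs2*-KO, *ptges*-KO). The parental cells came from a C57BL/6 mouse with the alleles Braf+/LSL-V600E, Tyr::CreERT2+/o, and p16INK4a-/-, so the control cells carried these alleles too. Each knockout was made by CRISPR/Cas9 and removed *ptgs1* (COX-1), *ptgs2* (COX-2), or *ptges* (mPGES-1), enzymes on the way from arachidonic acid to prostaglandin E2, and the scramble cells kept all of them. The 3 samples of a line came from different subclones, so p values measure the spread between subclones of 1 knockout line, and all cultures grew in D-MEM with fetal bovine serum.

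Histones are the proteins around which DNA is wound. Replication-dependent histone genes are clustered in the genome, are transcribed mainly in S phase, and supply the bulk of the core histones H2A, H2B, H3, and H4 and of the linker histone H1 for newly copied DNA. Most of their mRNAs carry no poly(A) tail and end a few bases behind a conserved stem-loop, which is bound by the stem-loop binding protein SLBP. Some replication-dependent genes also make longer mRNAs that run past the stem-loop and receive a poly(A) tail. Variant histone genes lie apart from these clusters, usually make polyadenylated mRNA in and outside of S phase, and code for proteins such as H2A.Z, H2A.X, macroH2A, and H3.3. The libraries were described as mRNA libraries, so the 2 classes of transcript need not be captured alike.

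The stem-loop is shown because it is the known hallmark of replication-dependent histone mRNA. In GENCODE M21 (GRCm38, the assembly also called mm10), all 65 replication-dependent and all 14 variant genes were found, 52 of the replication-dependent genes on chromosome 13, 9 on chromosome 3, 3 on chromosome 11, and 1 on chromosome 6. The motif GGNNCTNTTNAGNNCC was searched on the sense strand of the annotated spliced transcript, within 100 bases behind the stop codon. It was present in 40 of 64 replication-dependent genes with an annotated stop codon (62.5%) and in 1 of 13 such variant genes (7.69%). Many replication-dependent gene models end close to the stop codon, and the motif was present in 39 of the 46 replication-dependent genes with at least 60 annotated bases there (84.8%), a length chosen after the data were seen. It was present in 1 of 12 variant genes (8.33%) and in 5 of 19689 other protein-coding genes (0.0254%). Across histone genes the motif began 21 to 58 bases behind the stop codon and took 7 different sequences. The following sites are written 5′ to 3′ with the 16 bases of the motif in capitals, for genes described below and for H2afx, the only variant gene with a match.
Hist1h1c: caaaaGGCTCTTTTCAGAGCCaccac
Hist2h2aa1: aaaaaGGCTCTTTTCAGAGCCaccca
Hist3h2a: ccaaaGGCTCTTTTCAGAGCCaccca
Hist1h4m: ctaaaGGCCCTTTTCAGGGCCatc
Hist1h4i: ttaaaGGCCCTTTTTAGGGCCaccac
H2afx: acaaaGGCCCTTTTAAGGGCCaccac
The capitals are the same in *Hist1h1c*, *Hist2h2aa1*, and *Hist3h2a*, and this form was found in 22 histone genes. The *Hist1h1c* site lies in the 3′ untranslated region of its single exon at chr13:23739507-23739532 on the plus strand, and 840 annotated bases follow it. The *Hist1h4m* site lies at chr13:21812124-21812147 on the plus strand, and only 3 annotated bases follow it. The *Hist3h2a* site is at chr11:58955167-58955192 on the plus strand with 1643 annotated bases behind it, and the *H2afx* site is at chr9:44335235-44335260 on the plus strand with 822. The sites of *Hist2h2aa1*, at chr3:96246027-96246052 on the plus strand, and *Hist1h4i*, at chr13:22040961-22040986 on the minus strand, are followed by 35 and 330 bases.

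Values were deposited as RPKM, read counts divided by gene length in kilobases and by sequencing depth. The depth estimated from the steps between low values was 13.4 to 16.9 M reads per sample, at which 1 read in a 500-base transcript equals 0.118 to 0.149 RPKM. The number of reads holds only if the values are RPKM and were not scaled to a fixed total. The targeted genes bore out their labels in every sample, with *Ptgs1* at 14.3 to 16.9 RPKM in *ptgs1*-KO and 151.4 ± 11.5 in scramble cells, *Ptgs2* at 79.8 ± 4.38 in *ptgs2*-KO and 761.4 ± 14.2 in scramble cells, and *Ptges* at 37.1 ± 3.37 in *ptges*-KO and 77.6 ± 2.43 in scramble cells (SD, n = 3). *Ptges* was also at 54.5 ± 2.76 in *ptgs1*-KO cells. Of 12 markers of melanocytic cells, *Mitf* alone had a mean of at least 1 RPKM, while *Sox10*, *Mlana*, *Dct*, *Tyrp1*, *Kit*, *Gpr143*, and *Slc45a2* were listed at 0 in all samples. That mean was reached by 2 of 8 fibroblast (*Pdgfra*, *Pdgfrb*), 1 of 6 leukocyte (*Cd68*), 0 of 4 endothelial, and 0 of 4 keratinocyte markers, the last all at 0. The summed fibroblast markers were at 17.5 to 24.0 RPKM in scramble, 24.0 to 35.4 in *ptgs1*-KO, 9.79 to 11.5 in *ptgs2*-KO, and 9.58 to 13.1 in *ptges*-KO samples, and their part in the results was not tested. Testing covered the 11282 genes that averaged 1 RPKM or more, with limma on log2(RPKM + 1). These included 56 replication-dependent and 10 variant genes. *Hist1h2aa*, *Hist1h2ba*, *H1fnt*, *H1foo*, and *H2afb1* were listed at 0 in all samples, and 7 replication-dependent genes and *H2afy3* stayed below a mean of 1. *H2afy3* and *Hist3h2bb-ps*, which is counted among the 7, are processed pseudogenes in the annotation.

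Replication-dependent histone genes were measured at low levels and variant genes at high levels. The 56 replication-dependent genes had means from 1.01 to 39.4 RPKM with a median of 8.85, and the 10 variant genes had means from 15.2 to 778.3 RPKM with a median of 120.6. Summed RPKM of all 65 replication-dependent genes was 550.0, 726.3, and 575.5 in the scramble samples and 587.3, 482.4, and 496.4 in the *ptges*-KO samples. It was 539.2, 518.3, and 1637.7 in the *ptgs1*-KO samples and 624.2, 349.6, and 565.3 in the *ptgs2*-KO samples. *ptgs1*-KO replicate 3 lay above all other libraries and *ptgs2*-KO replicate 2 below all others, each apart from the remaining subclones of its own line. Summed variant RPKM varied over a narrower range, with the lowest value, 2109.7, in *ptgs1*-KO replicate 3, 2656.0 in *ptgs2*-KO replicate 2, and 2223.5 to 2786.2 in the others. These are mRNA libraries of bulk samples. A changed share of cells in S phase, changed histone RNA per cell, and changed capture of RNA without a poly(A) tail cannot be told apart.

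**Figure D1:**
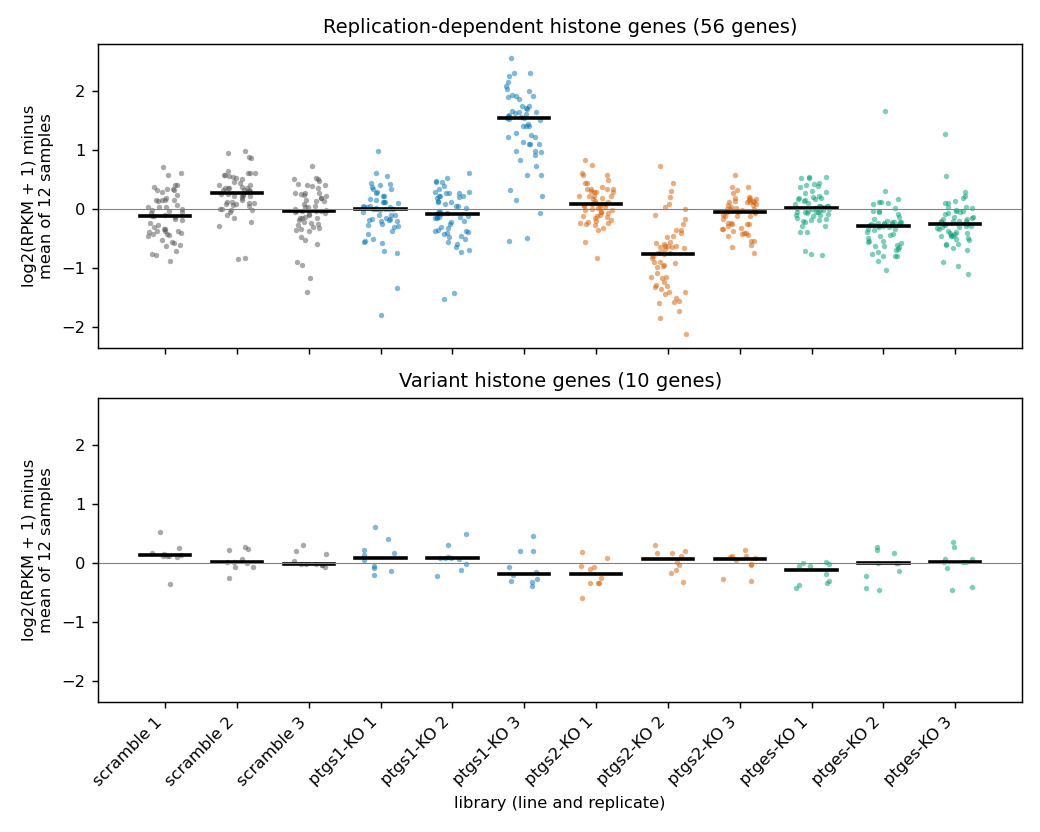
Difference of log2(RPKM + 1) from the mean of the 12 samples for each tested histone gene (points) in each library, with the median of the class as a black bar. The median of the 56 replication-dependent genes was 1.54 in ptgs1-KO replicate 3 and -0.755 in ptgs2-KO replicate 2, while that of the 10 variant genes stayed between -0.177 and 0.134.

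The departure of both libraries ran through most of the replication-dependent genes. *ptgs1*-KO replicate 3 had the highest value of the 12 samples in 48 of 56 replication-dependent genes, against 2.54% of all genes tested, and in 0 of 10 variant genes. *ptgs2*-KO replicate 2 had the lowest value in 35 of 56, against 2.72% of all genes tested, and again in 0 of 10 variant genes. Both held for 34 genes. The 48 include *Hist1h2bq* and *Hist1h2br*, rows with identical values that passed the filter only through groups where they were high, as described below. Neither count is a test of a line against another, since each concerns 1 library. Both libraries were singled out by the sum of these same genes, so the counts describe that departure and are no separate support for it.

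Among the most abundant genes, *Hist1h4m*, which codes for histone H4, showed the pattern plainly. *Hist1h4m* was at 22.1, 39.9, and 26.0 RPKM in scramble, 25.5, 27.6, and 110.5 in *ptgs1*-KO, 28.6, 14.1, and 28.6 in *ptgs2*-KO, and 29.2, 24.1, and 21.6 in *ptges*-KO samples. The high and the low value are those of the same pair of libraries, and the other values of the 4 lines overlap. *Hist2h2aa1*, an H2A gene, was at 26.2, 39.2, and 29.3 RPKM in scramble, 28.1, 30.5, and 90.4 in *ptgs1*-KO, 42.4, 17.6, and 36.6 in *ptgs2*-KO, and 41.0, 27.2, and 27.3 in *ptges*-KO samples. *Hist2h2bb*, an H2B gene, was at 26.8, 35.9, and 30.2 RPKM in scramble, 19.5, 21.7, and 89.9 in *ptgs1*-KO, 40.3, 11.2, and 32.3 in *ptgs2*-KO, and 38.3, 23.6, and 25.8 in *ptges*-KO samples. In all 3 genes the lines overlapped and none passed the test in any comparison. Of their windows of 101 bases, 88.1% in *Hist1h4m*, 88.3% in *Hist2h2aa1*, and 45.2% in *Hist2h2bb* are shared with other transcripts. Reads can thus fall on more than 1 gene, and other annotated genes overlap *Hist2h2aa1* and *Hist2h2bb*.

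By histone type, the summed RPKM in *ptgs1*-KO replicate 3 was 4.66 times the mean of the other *ptgs1*-KO samples for H4 genes, 2.93 times for H2B, 2.78 times for H2A, 2.72 times for H3, and 1.81 times for H1. In *ptgs2*-KO replicate 2 the ratio to the other *ptgs2*-KO samples was lowest for H3 at 0.450, followed by 0.508 for H4, 0.583 for H2B, 0.673 for H2A, and 0.833 for H1. The H1 sum is dominated by *Hist1h1c*, described below, which had a ratio of 1.04 in *ptgs2*-KO replicate 2. The other tested linker histone genes had ratios of 0.615 (*Hist1h1b*), 0.679 (*Hist1h1d*), and 0.540 (*Hist1h1e*) there.

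Other RNAs without a poly(A) tail were high and low in the same libraries. *Rn45s*, the precursor of ribosomal RNA, was at 5550.3, 11269.1, and 7587.2 RPKM in scramble, 8236.1, 7037.4, and 47672.3 in *ptgs1*-KO, 17612.7, 2169.1, and 11878.7 in *ptgs2*-KO, and 10992.3, 4890.0, and 5744.4 in *ptges*-KO samples. Its share of the summed values was 5.27% in *ptgs1*-KO replicate 3 and 0.245% in *ptgs2*-KO replicate 2. *Rmrp*, the RNA of the RNase MRP complex, was at 5874.2 RPKM in *ptgs1*-KO replicate 3 and 172.6 in *ptgs2*-KO replicate 2, with 366.3 to 2179.3 in the others. *Rpph1*, the RNA of RNase P, was at 1508.8 and 51.4 RPKM, with 147.9 to 491.7 in the others. Over 38 such RNAs the median difference from the mean of the 12 samples on the log2 scale was 1.70 in *ptgs1*-KO replicate 3 and -0.599 in *ptgs2*-KO replicate 2, but *ptgs2*-KO replicate 1 was also at -0.529. In each of the 4 lines, the samples had the same order by *Rn45s* and by summed replication-dependent histone RPKM. The median over the 38 RNAs did not keep this order in scramble, *ptgs2*-KO, or *ptges*-KO cells. Among scramble samples it was lowest, at -0.382, in replicate 2, which had the highest histone sum. What set these libraries apart was not tested.

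**Figure D2:**
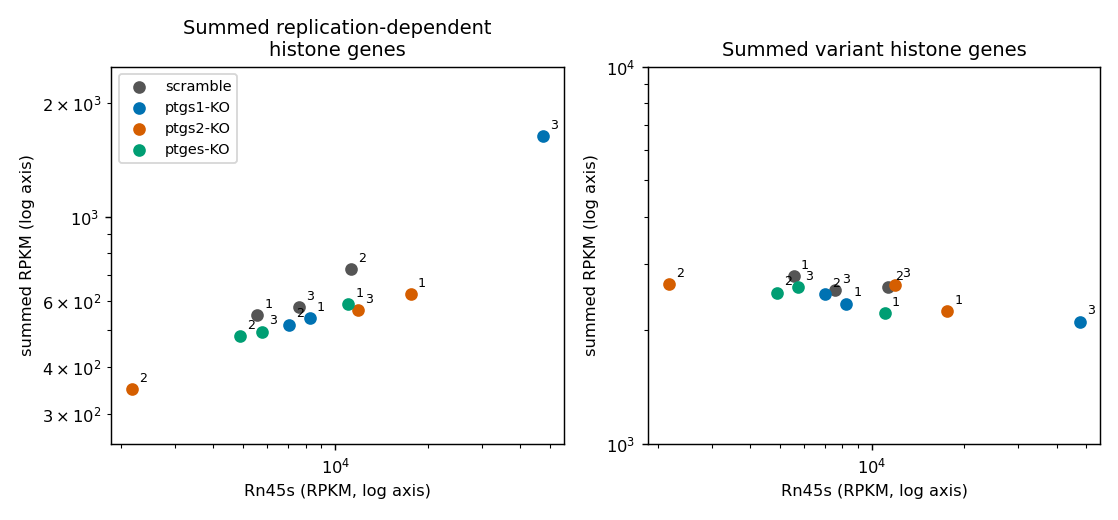
Summed RPKM of the replication-dependent (left) and variant (right) histone genes against the RPKM of Rn45s in each library, both axes logarithmic, with colors for lines and digits for replicates. Replication-dependent sums were 349.6 at the lowest Rn45s value and 1637.7 at the highest, whereas variant sums stayed between 2109.7 and 2786.2.

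Not every replication-dependent gene followed. In *ptgs1*-KO replicate 3, 49 of the 56 genes were at least 1.5 times the mean of the other *ptgs1*-KO samples, as were 214 of the 11282 genes tested and 0 of the 10 variant genes. *Hist1h2bq* and *Hist1h2br* are among the 49 as well. The median ratio was 3.05 for the 56 genes, 0.884 for the variant genes, and 0.890 for all genes tested. The 7 replication-dependent genes under 1.5 were *Hist1h1c* (ratio 1.47), *Hist1h2ao* (1.47), *Hist1h4i* (1.34), *Hist3h2a* (1.29), *Hist1h2bc* (1.05), *Hist2h2be* (0.811), and *Hist2h3c1* (0.612). In *ptgs2*-KO replicate 2 the same genes apart from *Hist1h2ao* (0.554) had ratios of 1.04 to 1.47. Of the windows of 101 bases, 100% in *Hist2h3c1* and 92.6% in *Hist1h2ao* are shared with other transcripts, so their values may not belong to these genes alone. The annotated transcripts of *Hist1h1c*, *Hist2h2be*, *Hist2h3c1*, and *Hist3h2a* end within 40 bases of the poly(A) signal AATAAA, as do 11 of the 56 genes. The 11 had a median ratio of 1.88 (range 0.612 to 14.0), and the other 45 had one of 3.09 (range 1.05 to 7.45). The 11 include *Hist1h2bq* and *Hist1h2br*, rows with identical values described below, and the median of 1.88 is the ratio of this pair. These rows passed the filter only through groups where they were high, so that median is no support for a difference from the other 45. Grouping by this distance was chosen after the data were seen and the ranges overlap widely. Conversely, *Hist1h4j*, with the ratio of 14.0, is among the 11.

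The spread between replicates differed between both classes. The SD between subclones of a line on log2(RPKM + 1), pooled over the 4 lines, had a median of 0.611 over the 56 replication-dependent genes, 0.136 over the 10 variant genes, and 0.137 over all genes tested. Each of the 56 genes lay above the median of all genes, and so did 5 of the 10 variant genes. The lowest SD was 0.144 in *Hist2h2be* and the highest was 1.06 in *Hist1h4a*, an H4 gene. Without *ptgs1*-KO replicate 3 and *ptgs2*-KO replicate 2, the medians were 0.308, 0.150, and 0.134. The replication-dependent genes also had lower levels than the variant genes, and the part of the level in this difference was not tested.

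**Figure D3:**
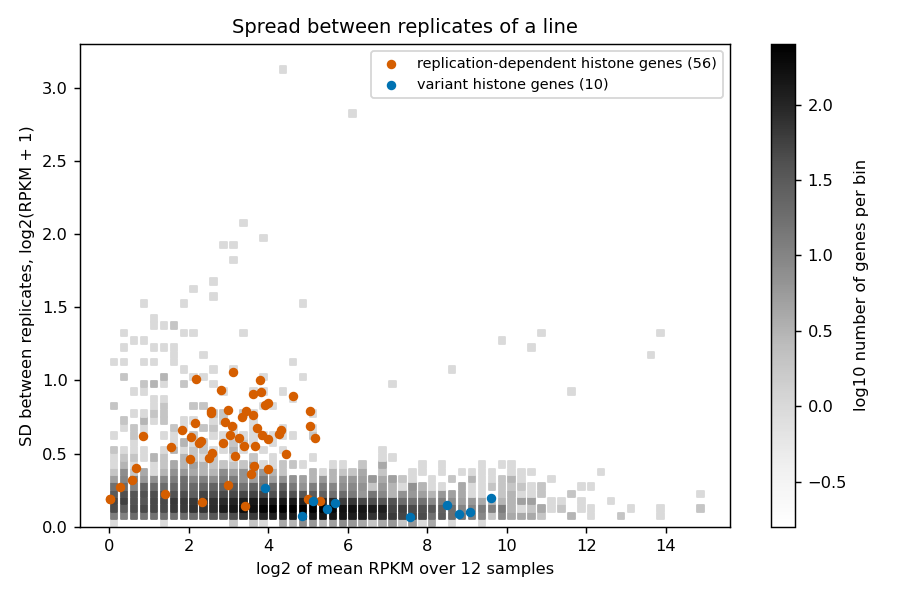
SD between replicates of a line on log2(RPKM + 1) against log2 of the mean RPKM for replication-dependent (orange) and variant (blue) histone genes, over all tested genes in bins (grey, darker with more genes, log10 scale). Most replication-dependent genes sit above the dense band at their level, with SDs up to 1.06, and the variant genes sit in or near it, with SDs of 0.068 to 0.262.

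Few replication-dependent genes passed the test between a knockout and scramble cells. Their median SD between replicates was 0.611, against 0.137 for all genes tested, so a gene that did not pass may still differ. The comparisons with scramble cells share the same 3 control samples. The threshold for a change was 0.05 for limma's p, adjusted after Benjamini-Hochberg across the 11282 genes. In *ptgs1*-KO cells 3 of 56 were lower and 0 higher, against 9.26% of all genes tested changed in either direction. In *ptgs2*-KO cells 4 were lower and 0 higher, against 11.1%. In *ptges*-KO cells 3 were lower and 1 higher, against 26.3%. With *ptges*-KO set against *ptgs2*-KO, 2 were lower and 0 higher, against 16.6%. In these lines the samples numbered 1 deviated together, while those numbered 2 and 3 did so across numbers as well. With the replicate number as a block, 4 of 56 passed in that comparison, against 33.9% of all genes. For any difference among the 4 groups, 9 of 56 passed, against 38.6%. The 4 in *ptgs2*-KO cells include *Hist1h2bq* and *Hist1h2br*, a pair of rows with identical values described below, without which 2 of 54 passed. With *Rn45s* as a covariate, chosen after the data were seen, *ptgs2*-KO cells had 13 of 56 lower and 0 higher (23.2%, or 11 of 54 without that pair), against 13.6% of all genes, so this count depended on the covariate. The counts in the other comparisons under that covariate were 5 in *ptgs1*-KO and 9 in *ptges*-KO cells and 7 with *ptges*-KO set against *ptgs2*-KO, against 8.55%, 28.7%, and 18.2% of all genes. The median log2 fold change over the 56 genes was 0.38 in *ptgs1*-KO, -0.34 in *ptgs2*-KO, and -0.27 in *ptges*-KO cells, while that of all genes was 0.0069, 0.0088, and -0.0297.

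The medians of *ptgs1*-KO and *ptgs2*-KO cells rested on the pair of libraries that stood apart. Neither library is a *ptges*-KO or scramble sample, so the *ptges*-KO median could not change when both were left out. Without both, the median over the 56 genes was -0.09 in *ptgs1*-KO, -0.02 in *ptgs2*-KO, and -0.27 in *ptges*-KO cells. The summed level was then 528.8 in *ptgs1*-KO (n = 2) and 594.8 in *ptgs2*-KO (n = 2), against 617.3 ± 95.3 in scramble and 522.0 ± 57.0 in *ptges*-KO cells (SD, n = 3), and with all samples it was 898.4 ± 640.3 in *ptgs1*-KO and 513.1 ± 144.6 in *ptgs2*-KO cells. The replication-dependent genes that passed without both were 2 in *ptgs1*-KO cells (7.57% of all genes), 6 in *ptgs2*-KO cells (10.4%), 10 in *ptges*-KO cells (26.9%), and 1 with *ptges*-KO set against *ptgs2*-KO (13.4%). Of the 10 in *ptges*-KO cells, 8 were lower (*Hist1h1c*, *Hist1h1d*, *Hist1h2ac*, *Hist1h2an*, *Hist1h2bc*, *Hist1h2bq*, *Hist1h2br*, *Hist3h2a*) and 2 higher (*Hist1h2af*, *Hist1h4b*). *Hist1h2bq* and *Hist1h2br* are also among the 6 in *ptgs2*-KO cells, and without them 4 of 54 passed there and 8 of 54 in *ptges*-KO cells.

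*Hist1h1c*, which codes for the linker histone H1.2, was lower in each knockout. *Hist1h1c* was at 47.6, 47.9, and 44.5 RPKM in scramble, 25.2, 28.1, and 39.0 in *ptgs1*-KO, 28.4, 30.8, and 30.8 in *ptgs2*-KO, and 18.4, 21.8, and 24.4 in *ptges*-KO samples. All knockout samples were below all scramble samples, and the *ptges*-KO samples were also below all *ptgs2*-KO samples. The log2 fold change against scramble was -0.61 ± 0.14 in *ptgs1*-KO (adjusted p = 0.0133), -0.62 ± 0.14 in *ptgs2*-KO (adjusted p = 0.0114), and -1.09 ± 0.14 in *ptges*-KO cells (adjusted p = 0.000114, limma, ± SE). Set against *ptgs2*-KO, *ptges*-KO cells were at -0.47 ± 0.14 (adjusted p = 0.0339). The call in *ptgs1*-KO cells was lost without scramble replicate 1 or 2 or without *ptgs1*-KO replicate 1 or 2 (adjusted p = 0.0511 to 0.0591). The call against *ptgs2*-KO cells was lost without any 1 *ptgs2*-KO sample or without *ptges*-KO replicate 1 or 2 (adjusted p = 0.0583 to 0.0924), and also without a filter on low values, with median ratio scaling, and with quantile normalization (adjusted p = 0.0702, 0.0999, and 0.126).

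*Hist1h2bc*, an H2B gene and the replication-dependent gene with the highest mean, was lower in each knockout too. *Hist1h2bc* was at 62.9, 54.95, and 51.0 RPKM in scramble, 35.5, 33.9, and 36.4 in *ptgs1*-KO, 33.2, 40.1, and 43.0 in *ptgs2*-KO, and 21.97, 29.4, and 30.6 in *ptges*-KO samples. Again every knockout sample was below every scramble sample. The log2 fold change against scramble was -0.66 ± 0.13 in *ptgs1*-KO (adjusted p = 0.00522), -0.53 ± 0.13 in *ptgs2*-KO (adjusted p = 0.0173), and -1.03 ± 0.13 in *ptges*-KO cells (adjusted p = 9.7e-05), and for *ptges*-KO set against *ptgs2*-KO it was -0.50 ± 0.13 (adjusted p = 0.0173). The call in *ptgs2*-KO cells was lost without scramble replicate 1 (adjusted p = 0.0813) or *ptgs2*-KO replicate 1 (adjusted p = 0.0719), and the call between both knockouts without *ptgs2*-KO replicate 2 or 3 (adjusted p = 0.0604 and 0.0623), without both libraries that stood apart (0.0723), and with only the groups compared in the fit (0.0636). The annotated gene at chr13:23684199-23692908 on the plus strand has 2 exons. No match of the stem-loop motif was found within 100 bases behind the stop codon of the spliced transcript, and bases that this model splices out were not searched.

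*Hist3h2a*, an H2A gene outside the large clusters, passed the test in *ptges*-KO cells. *Hist3h2a* was at 6.80, 6.18, and 6.23 RPKM in scramble, 3.94, 4.83, and 5.64 in *ptgs1*-KO, 3.98, 5.16, and 5.27 in *ptgs2*-KO, and 3.58, 4.44, and 4.70 in *ptges*-KO samples. All knockout samples were below the scramble samples, but only the *ptges*-KO difference passed the test, with a log2 fold change of -0.50 ± 0.14 (adjusted p = 0.0160). In *ptgs1*-KO and *ptgs2*-KO cells it was -0.36 ± 0.14 in both (adjusted p = 0.126 and 0.112), and the difference of *ptges*-KO from *ptgs2*-KO did not pass (-0.15 ± 0.14, adjusted p = 0.508). The call was lost without scramble replicate 1 (adjusted p = 0.0568) or *ptges*-KO replicate 1 (adjusted p = 0.0592) and with quantile normalization (adjusted p = 0.0621). Annotated exons of *Trim17* overlap this gene on the same strand, so reads may be shared.

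*Hist2h2be*, an H2B gene on chromosome 3, was lower in *ptgs1*-KO cells. *Hist2h2be* was at 12.5, 10.3, and 12.4 RPKM in scramble, 9.01, 7.85, and 6.84 in *ptgs1*-KO, 11.6, 12.2, and 10.1 in *ptgs2*-KO, and 10.3, 11.5, and 12.4 in *ptges*-KO samples. The *ptgs1*-KO samples were below all others, with a log2 fold change against scramble of -0.52 ± 0.12 (adjusted p = 0.0149). In *ptgs2*-KO and *ptges*-KO cells it was -0.05 ± 0.12 (adjusted p = 0.822) and -0.04 ± 0.12 (adjusted p = 0.847). The call was lost without scramble replicate 1 or 3 or *ptgs1*-KO replicate 3, or without both libraries that stood apart (adjusted p = 0.0512 to 0.0672). None of its 101-base windows occurs in another transcript that was compared.

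*Hist1h2af*, an H2A gene, was the only replication-dependent gene called higher in a knockout. *Hist1h2af* was at 12.6, 10.1, and 6.47 RPKM in scramble, 4.66, 6.39, and 41.2 in *ptgs1*-KO, 23.9, 31.8, and 28.3 in *ptgs2*-KO, and 22.9, 61.3, and 46.7 in *ptges*-KO samples. All *ptgs2*-KO and *ptges*-KO samples were above all scramble samples, and *ptgs2*-KO replicate 2 was not low in this gene. The log2 fold change was 1.99 ± 0.58 in *ptges*-KO (adjusted p = 0.0225), 1.47 ± 0.58 in *ptgs2*-KO (adjusted p = 0.121), and 0.22 ± 0.58 in *ptgs1*-KO cells (adjusted p = 0.865). Leaving out both libraries that stood apart cannot move the *ptges*-KO fold change, but its SE was then 0.32 (adjusted p = 0.00165). In *ptgs2*-KO cells the log2 fold change was then 1.38 ± 0.36 (adjusted p = 0.0371). The call in *ptges*-KO cells was lost without scramble replicate 2 or 3 or *ptges*-KO replicate 2 or 3 and without a filter on low values (adjusted p = 0.0541 to 0.0875). Of its 299 windows of 101 bases, 195 are shared with other transcripts, so reads can fall on more than 1 gene, and *Gm44297* overlaps it on the opposite strand.

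*Hist1h2bq* and *Hist1h2br*, H2B genes, had identical values in all 12 samples, and 100% and 99.8% of their 101-base windows are shared, so they count as 1 measurement. *Hist1h2bq* was at 1.49, 1.52, and 1.17 RPKM in scramble, 1.03, 1.04, and 1.95 in *ptgs1*-KO, 0.67, 0.55, and 0.36 in *ptgs2*-KO, and 0.91, 0.69, and 0.80 in *ptges*-KO samples. Against scramble, *ptgs2*-KO cells differed by -0.65 ± 0.16 on the log2 scale (adjusted p = 0.0189). These 2 rows averaged 1.01 RPKM over the 12 samples. Their mean falls below 1 without the scramble samples, and also without the *ptgs1*-KO samples. They thus passed the filter only through groups where they were high, so their calls are no support for a difference. Sharing was common among replication-dependent genes, 58 of which had at least 1 shared window with a median of 32.6% of the windows, against a median of 0% in variant genes.

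**Figure D4:**
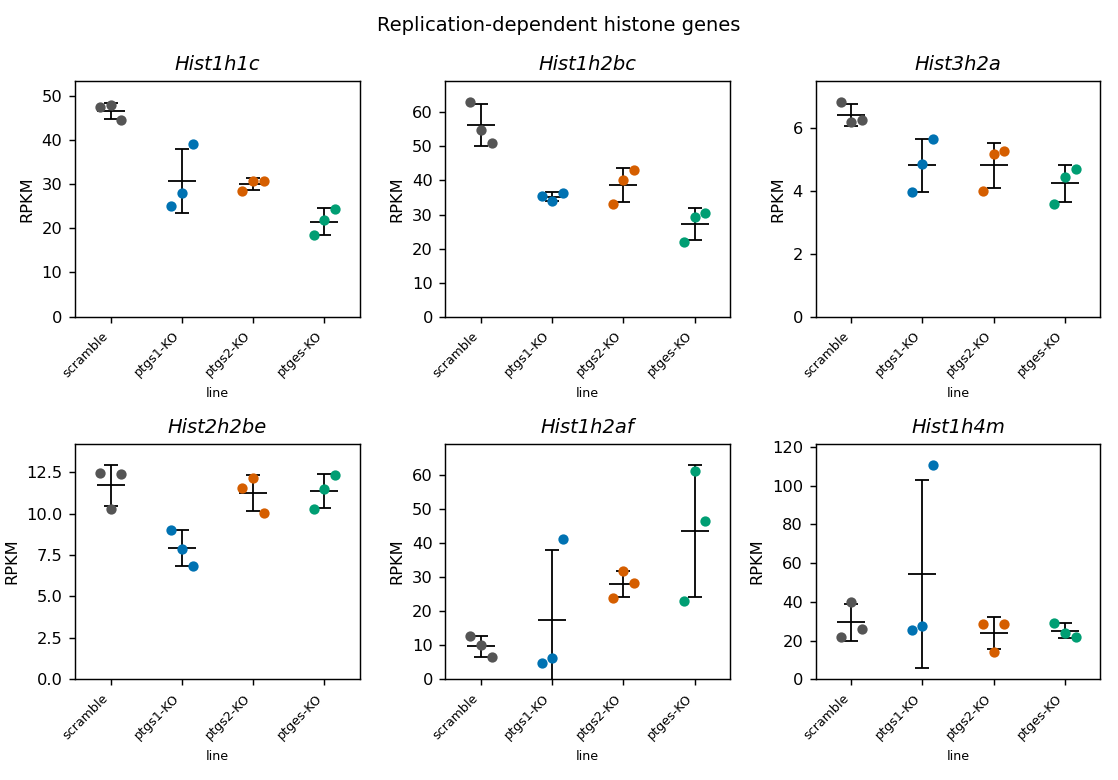
RPKM of 6 replication-dependent histone genes in each sample (points, 3 per line, replicates 1 to 3 from left to right) with mean and SD (bars, cut at 0 where they would run below it). Hist1h1c and Hist1h2bc were lowest in ptges-KO cells, Hist1h2af was highest there, Hist2h2be was lowest in ptgs1-KO cells, and Hist1h4m shows the single high sample, ptgs1-KO replicate 3, at 110.5 RPKM.

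Variant histone genes were measured with less spread. In *ptgs1*-KO cells 1 of 10 was higher, in *ptgs2*-KO cells 1 was lower, in *ptges*-KO cells 2 were lower, and with *ptges*-KO set against *ptgs2*-KO 2 were higher and 1 lower. For any difference among the 4 groups 3 of 10 passed. With so few genes these shares cannot be set apart from the 9.26% to 38.6% of all genes.

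*H2afy2*, which codes for macroH2A2, an H2A variant with a large added domain, showed the strongest call among the variants. *H2afy2* was at 30.2, 33.3, and 34.8 RPKM in scramble, 43.3, 39.6, and 38.6 in *ptgs1*-KO, 21.9, 22.2, and 22.4 in *ptgs2*-KO, and 21.3, 20.1, and 19.97 in *ptges*-KO samples. The *ptgs1*-KO samples were above and the *ptgs2*-KO and *ptges*-KO samples below all scramble samples. The log2 fold change was 0.30 ± 0.08 in *ptgs1*-KO (adjusted p = 0.0280), -0.54 ± 0.08 in *ptgs2*-KO (adjusted p = 0.000666), and -0.65 ± 0.08 in *ptges*-KO cells (adjusted p = 6.5e-05), and the difference of *ptges*-KO from *ptgs2*-KO, at -0.11 ± 0.08, did not pass (adjusted p = 0.368). The calls in *ptgs2*-KO and *ptges*-KO cells held without each sample in turn, but that in *ptgs1*-KO cells was lost without scramble replicate 1 or 2 or *ptgs1*-KO replicate 1 or 2 and with only the groups compared in the fit (adjusted p = 0.0593 to 0.135). *Aifm2* overlaps its exons on the opposite strand, and whether strand was used in counting is not given in the sources used here. *H2afy*, which codes for macroH2A1, was at 45.9 ± 5.76 RPKM in scramble, 47.0 ± 8.51 in *ptgs1*-KO, 56.4 ± 1.80 in *ptgs2*-KO, and 53.9 ± 3.04 in *ptges*-KO cells (SD, n = 3) and passed no test.

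*H1fx*, a linker histone variant, was lower in *ptges*-KO cells. *H1fx* was at 49.3, 53.5, and 43.4 RPKM in scramble, 58.9, 47.5, and 51.1 in *ptgs1*-KO, 41.4, 44.9, and 48.5 in *ptgs2*-KO, and 35.1, 32.8, and 33.1 in *ptges*-KO samples. The *ptges*-KO samples were below all others, with a log2 fold change of -0.52 ± 0.10 against scramble (adjusted p = 0.00222) and -0.40 ± 0.10 against *ptgs2*-KO cells (adjusted p = 0.0136). The first call held without each sample in turn, and the second was lost without *ptgs2*-KO replicate 3 (adjusted p = 0.0507) or *ptges*-KO replicate 2 (adjusted p = 0.0558). *H1f0*, the linker histone of resting and differentiated cells, was at 452.1 ± 39.8 RPKM in scramble, 399.8 ± 31.9 in *ptgs1*-KO, 479.8 ± 14.6 in *ptgs2*-KO, and 438.7 ± 9.4 in *ptges*-KO cells, with no call.

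Among H2A variants, *H2afz*, which codes for H2A.Z and marks promoters, had the highest level of all histone genes. *H2afz* was at 924.3, 899.7, and 860.4 RPKM in scramble, 669.8, 759.4, and 586.5 in *ptgs1*-KO, 643.1, 886.9, and 901.3 in *ptgs2*-KO, and 626.5, 770.4, and 810.9 in *ptges*-KO samples. The *ptgs1*-KO and *ptges*-KO samples were below the scramble samples, but the log2 fold changes of -0.42 ± 0.14 (adjusted p = 0.0845) and -0.29 ± 0.14 (adjusted p = 0.149) did not pass. *H2afv*, the second H2A.Z gene, was at 37.6, 28.8, and 33.6 RPKM in scramble, 40.2, 43.0, and 39.9 in *ptgs1*-KO, 22.4, 30.4, and 28.5 in *ptgs2*-KO, and 33.1, 40.3, and 41.9 in *ptges*-KO samples. *H2afv* was higher in *ptges*-KO than in *ptgs2*-KO by 0.49 ± 0.13 on the log2 scale (adjusted p = 0.0177), a call lost without *ptgs2*-KO replicate 1 or *ptges*-KO replicate 2 or 3 and with only the groups compared in the fit (adjusted p = 0.0532 to 0.0792), and no difference from scramble passed. *H2afx*, whose protein is phosphorylated at DNA breaks, was at 180.3 to 198.6 RPKM as means of the 4 lines. *H2afj* had means of 12.9 to 18.2 RPKM, and neither gene passed a test.

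*H3f3a* and *H3f3b* both code for H3.3, which is laid down outside of replication. *H3f3a* was at 387.3, 365.3, and 344.1 RPKM in scramble, 328.6, 380.9, and 311.4 in *ptgs1*-KO, 283.4, 332.4, and 349.1 in *ptgs2*-KO, and 361.1, 432.7, and 459.4 in *ptges*-KO samples. The *ptges*-KO samples were above all *ptgs2*-KO samples but overlapped the scramble samples, and the log2 difference between *ptges*-KO and *ptgs2*-KO cells was 0.37 ± 0.11 (adjusted p = 0.0356). It was lost without scramble replicate 2, *ptgs2*-KO replicate 1 or 2, or *ptges*-KO replicate 2 or 3 (adjusted p = 0.0507 to 0.150). It was lost too without both libraries that stood apart (adjusted p = 0.0600), without a filter on low values (0.0672), with quantile normalization (0.0793), and with only the groups compared in the fit (0.0793). *H3f3b* was at 560.2 ± 27.9 RPKM in scramble, 516.6 ± 42.6 in *ptgs1*-KO, 553.0 ± 31.0 in *ptgs2*-KO, and 516.4 ± 41.6 in *ptges*-KO cells and passed no test. Whether *H3f3a* and *H3f3b* differed in their response was not tested.

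**Figure D5:**
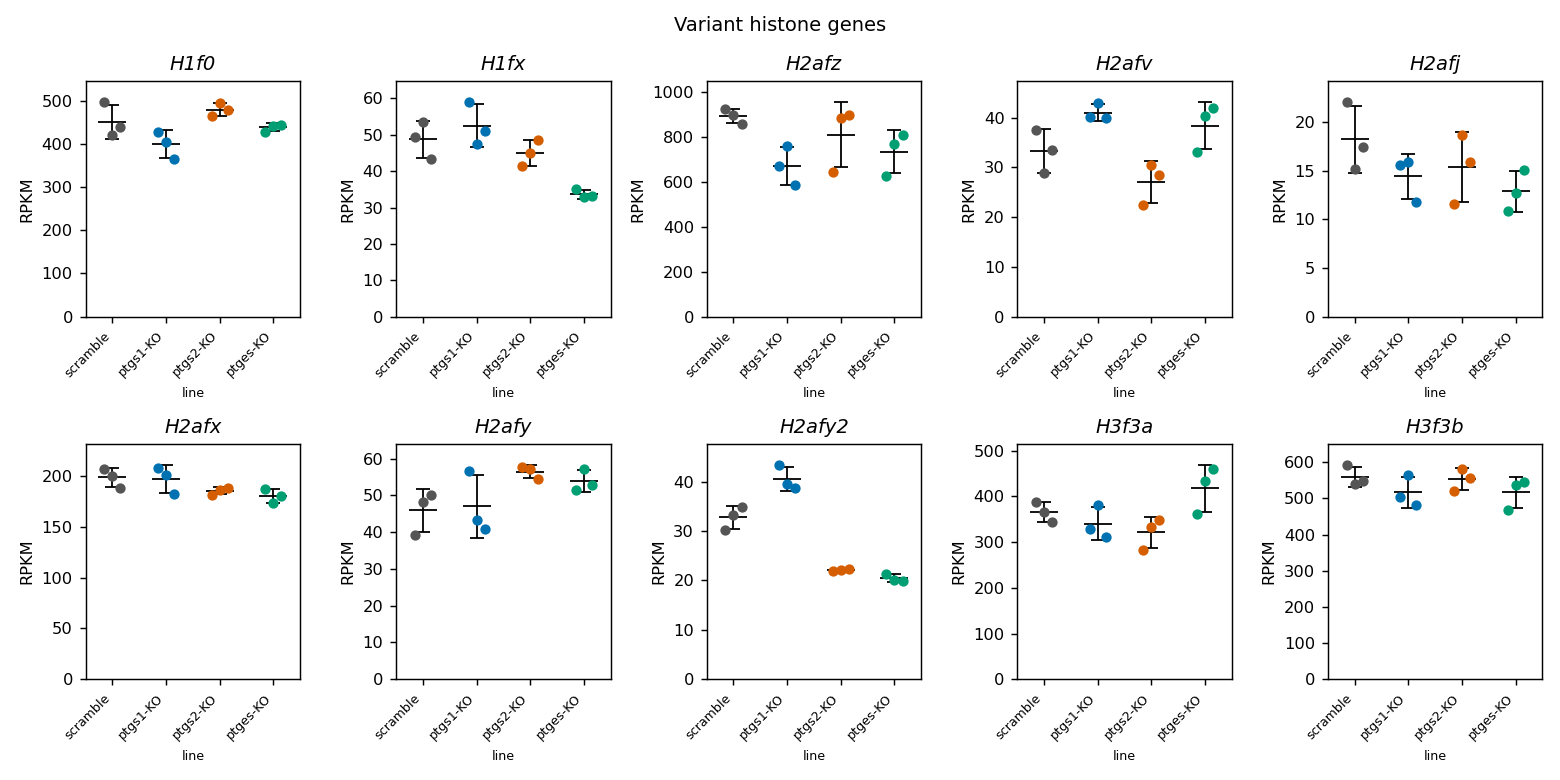
RPKM of the 10 variant histone genes in each sample (points, 3 per line, replicates 1 to 3 from left to right) with mean and SD (bars). H2afy2 separates into high ptgs1-KO, intermediate scramble, and low ptgs2-KO and ptges-KO samples, H1fx is lowest in ptges-KO cells, and ptgs1-KO replicate 3 has the lowest value for H1f0 and H2afz.

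Genes that serve histone synthesis were examined as lists. Of 30 tested genes for histone transcription and mRNA 3′ processing, 5 rose and 1 fell in *ptges*-KO cells, 3 rose in *ptgs2*-KO cells, and 1 rose in *ptgs1*-KO cells. Of all genes tested 26.3%, 11.1%, and 9.26% passed in these comparisons in either direction. Counted in either direction too, the calls of this list were near or below the background. *Slbp*, whose protein binds the stem-loop, was at 70.3 ± 0.706 RPKM in scramble and 88.7 ± 1.52 in *ptges*-KO cells (SD, n = 3), and it rose by 0.33 ± 0.07 on the log2 scale (adjusted p = 0.00367). It was at 74.5 ± 4.43 in *ptgs1*-KO and 78.5 ± 4.54 in *ptgs2*-KO cells, with no call. *Cdk2*, the kinase that activates NPAT, rose in *ptgs2*-KO (0.43 ± 0.10, adjusted p = 0.0137) and in *ptges*-KO cells (0.43 ± 0.10, adjusted p = 0.00624). *Npat*, the coactivator of the histone clusters, was at 24.7 to 28.7 RPKM as means of the 4 lines and passed no test. *Ncbp2*, a cap-binding protein gene, was the member that fell in *ptges*-KO cells, by 0.24 on the log2 scale (adjusted p = 0.0402).

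Of 32 tested histone chaperone and exchange genes, 12 rose and 1 fell in *ptges*-KO cells, and the median log2 fold change was 0.11 over the list and -0.03 over all genes. In *ptgs2*-KO cells 4 rose, and in *ptgs1*-KO cells 1 fell. The background was 26.3% of all genes in *ptges*-KO, 11.1% in *ptgs2*-KO, and 9.26% in *ptgs1*-KO cells. *Nap1l1*, a chaperone of H2A and H2B, was at 290.2 ± 6.17 RPKM in scramble, 416.1 ± 9.07 in *ptgs2*-KO, and 516.8 ± 19.7 in *ptges*-KO cells, and the log2 fold change for *ptges*-KO was 0.83 ± 0.09 (adjusted p = 2.2e-05). *Anp32e*, a chaperone that takes H2A.Z off chromatin, rose in *ptgs2*-KO (0.35) and *ptges*-KO cells (0.55) and fell by 0.25 in *ptgs1*-KO cells, all on the log2 scale. *Chaf1b*, a subunit of the complex that deposits new H3 and H4 behind the replication fork, rose from 23.4 ± 0.923 RPKM in scramble to a range of 33.0 to 36.9 in *ptges*-KO cells (log2 fold change 0.56 ± 0.08, adjusted p = 0.000437). *Asf1b*, *Chaf1a*, and *Hira* passed no test. *Cenpa*, the centromeric H3 variant that does not carry a name of the searched forms, was higher in *ptges*-KO than in *ptgs2*-KO by 0.37 ± 0.11 (adjusted p = 0.0368).

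Of 34 S phase and replication genes, 12 rose and 1 fell in *ptges*-KO, 7 rose in *ptgs2*-KO, and 1 rose in *ptgs1*-KO cells, where 26.3%, 11.1%, and 9.26% of all genes passed. *Mcm7* and *Mcm6*, of the replicative helicase, rose in *ptges*-KO cells by 0.37 and 0.36 on the log2 scale (adjusted p = 0.0033 and 0.00582). Of 20 mitosis genes, 5 rose in *ptges*-KO, 2 rose in *ptgs2*-KO, and 1 fell in *ptgs1*-KO cells, and the one that fell was *Ccna2* (cyclin A2). These mitosis counts were near or below the same background, which covers both directions. In *ptges*-KO and *ptgs2*-KO cells 0 mitosis genes fell, while 1342 and 674 of the 11282 genes were called higher there. In *ptgs1*-KO replicate 3, where replication-dependent histone genes were high, the median difference from the mean of the 12 samples was -0.164 for the S phase list and -0.182 for the mitosis list. In *ptgs2*-KO replicate 2, where they were low, it was 0.059 and 0.055, and in all genes tested it was -0.086 and 0.040. Of 10 tested genes of the polyadenylation machinery, 3 rose in *ptgs2*-KO and 3 in *ptges*-KO cells (*Cpsf6*, *Pabpc1*, *Papola*), and 0 passed in *ptgs1*-KO cells, where 0 had an unadjusted p under 0.05, and 10 genes are too few to set against the same background. Of 38 tested RNAs without a poly(A) tail, 0 passed in limma in any of the 4 comparisons, with 3, 0, 5, and 5 at an unadjusted p under 0.05 in the comparisons of *ptgs1*-KO with scramble, *ptgs2*-KO with scramble, *ptges*-KO with scramble, and *ptges*-KO with *ptgs2*-KO.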

How the data were processed

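RNA-seq of 12 samples, 3 per line, was analyzed. Samples were grouped by their labels. The authors deposited RPKM values per gene name to 2 decimals, made from 101 bp paired-end reads with the build mm10 per the labels. Aligner, counter, and strand setting are not given in the sources used here, and the labels name both a TruSeq v2 and a directional NEXTflex library kit. Per sample the values summed to 878504 to 903881, so a scaling to a fixed total is possible. Depth was estimated from the step of value times transcript length among low values, with the values taken as RPKM, and is least certain in *ptgs1*-KO replicate 1. Identical reads of near-identical copies cannot be assigned to 1 gene, and how the authors treated them is not known here.

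Genes averaging 1 RPKM or more were tested on log2(RPKM + 1), a pseudocount of 1, with limma 3.58.1 in R 4.3.3 (lmFit and eBayes with trend, all 12 samples, two-sided, Benjamini-Hochberg over 11282 genes). Fold changes on this scale understate changes of genes with low values. In *ptgs1*-KO and *ptgs2*-KO cells 2 samples remain per line when both outlying libraries are left out. Sequences came from GENCODE M21, and windows of 101 bases, the read length, were compared between all annotated transcripts. Figures were drawn with Python 3.11.15 and matplotlib 3.10.9. The test was checked on simulated data. The members, the lists, and the named genes were chosen with earlier results of these data known. Named replication-dependent genes were the 6 with the highest means and up to 8 with the largest change among those that passed a pairwise test, and named variants were all that were tested. From each list up to 4 genes and *Slbp*, *Npat*, *Cenpa*, *Asf1b*, *Chaf1a*, and *Hira* were named, and other genes were named after their values were seen. Alternatives were a pseudocount of 0.1, no filter, a filter at a mean of 10 RPKM, median ratio scaling, quantile normalization, a replicate block, only the groups compared, eBayes without trend, each sample left out, and the untransformed analysis of variance with Tukey test. Leaving out both outlying libraries, *Rn45s* as a covariate, and the replicate block within *ptges*-KO and *ptgs2*-KO samples were chosen later, with the data seen. Deviations of same-numbered *ptgs2*-KO and *ptges*-KO samples from their group means correlated across genes at 0.566, 0.112, and 0.254. Across numbers, *ptgs2*-KO replicate 2 with *ptges*-KO replicate 3 reached 0.321, and *ptgs2*-KO replicate 3 with *ptges*-KO replicate 2 reached 0.219. The other differently numbered pairs of these lines, each with a replicate 1, were at -0.475 to -0.277. The numbers may thus pair the samples numbered 1, but not clearly those numbered 2 and 3. In no other pair of lines did all 3 same-numbered correlations exceed 0.1, and the labels do not say what a number marks.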

Additional observations from a re-analysis of the deposited data

How the results depend on the processing

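No call of a named gene changed direction under the alternatives other than the Tukey test, with 386 values that kept their side of the threshold and 56 that lost it. The Tukey test was used for counts only. The counts for replication-dependent genes below are given against 3 (*ptgs1*-KO), 4 (*ptgs2*-KO), 4 (*ptges*-KO), 2 (*ptges*-KO against *ptgs2*-KO), and 9 (any difference), and those for variant genes against 1, 1, 2, 3, and 3. With each sample left out in turn, replication-dependent counts ranged over 1 to 4, 1 to 7, 3 to 8, 0 to 2, and 6 to 13, and variant counts over 0 to 2, 1 to 1, 2 to 3, 0 to 3, and 3 to 4, where a line is left with 2 samples. Without scramble replicate 1 replication-dependent counts were 1 in *ptgs1*-KO and 1 in *ptgs2*-KO cells, and 2 in *ptgs2*-KO cells without scramble replicate 2 or *ptgs2*-KO replicate 3. For *ptges*-KO against *ptgs2*-KO they were 0 without *ptgs2*-KO replicate 2 or 3 and 1 without *ptgs2*-KO replicate 1 or *ptges*-KO replicate 1 or 2. The variant count in *ptgs1*-KO cells was 0 without scramble replicate 1 or 2 or *ptgs1*-KO replicate 1 or 2 and 2 without *ptgs2*-KO replicate 1, and for *ptges*-KO against *ptgs2*-KO it was 1 without *ptgs2*-KO replicate 1 or *ptges*-KO replicate 3 and 0 without *ptges*-KO replicate 2. Replication-dependent counts rose without *ptgs1*-KO replicate 3 to 7 in *ptgs2*-KO and 8 in *ptges*-KO cells. Without both outlying libraries they were 10 in *ptges*-KO cells and 1 for *ptges*-KO against *ptgs2*-KO, and the median SD of replication-dependent genes fell to 0.308. With *Rn45s* as a covariate they were 5, 13, 9, 7, and 21 (8.93%, 23.2%, 16.1%, and 12.5% in the pairwise comparisons, against 8.55%, 13.6%, 28.7%, and 18.2% of all genes), and variant counts were 4 in *ptges*-KO cells and 5 for any difference. The replication-dependent count for *ptges*-KO against *ptgs2*-KO was 1 without a filter, with median ratio scaling, with quantile normalization, and with only the groups compared, and 0 with the Tukey test. With a filter at a mean of 10 RPKM, which leaves fewer genes, the count was 2 in *ptgs2*-KO cells and 5 for any difference. With only the groups compared it was 10 in *ptges*-KO cells, and the variant count for *ptges*-KO against *ptgs2*-KO was 1, as with the Tukey test. With quantile normalization variant counts were 2 in *ptgs1*-KO, 5 in *ptges*-KO cells, and 7 for any difference. For these shifts the cause was not tested.

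Same-numbered samples of different lines correlated in their deviations at r = -0.341 to 0.566 across genes, over 0.1 in 5 of 18 pairs, of which 3 are those of *ptgs2*-KO and *ptges*-KO. For all pairs of lines the labels show only a shared number. With the replicate number as a block over all lines the count for any difference among replication-dependent genes was 10, and no other histone count changed. With the replicate block within *ptges*-KO and *ptgs2*-KO samples, the replication-dependent count for that comparison was 4 and the variant count 3. The low level of replication-dependent genes, a median of 8.85 RPKM, and reads shared between copies limit what can be seen in single genes.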
